A study of Mus musculus with 20 samples.

Results

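The nuclear genes for subunits of the mitochondrial respiratory chain and ATP synthase were followed through RNA recovered with the iron regulatory protein IRP2 from 5 mouse tissues. Members were the probe sets whose single gene symbol began with Ndufa, Ndufb, Ndufc, Ndufs, Ndufv, Uqcr, Cox4i, Cox5, Cox6, Cox7, Cox8 or Atp5, or was Sdha, Sdhb, Sdhc, Sdhd, Cyc1 or Cycs, leaving out Ndufs1 and pseudogenes. The rule took 183 probe sets of 91 genes out of 45037 on the array, and no measured value entered it. Complex I held 77 probe sets of 35 genes, with 10 more for 8 of its assembly factors (symbols beginning Ndufaf), complex II held 9 of 4 genes, complex III 17 of 9, cytochrome c 4 of 1, complex IV 35 of 17 and the ATP synthase, called complex V, 31 of 17. Of the 183, 170 probe sets of 86 genes passed a filter on dim signal (at or above the array median on 2 or more arrays) and were tested, among 30153 tested in all.

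The respiratory chain of the inner mitochondrial membrane passes electrons from NADH (complex I) and succinate (complex II) through complex III and the soluble carrier cytochrome c to oxygen at complex IV, and complex V uses the resulting proton gradient to make ATP. The chain is one of the largest users of iron in a cell, since many of its subunits carry iron-sulfur clusters or heme, and several subunits of complex IV exist as isoforms made from separate genes in different tissues. IRP2 binds iron-responsive elements, short hairpins in the untranslated regions of mRNAs such as those of ferritin and the transferrin receptor, when cells are short of iron. An element of this kind is known in the fruit fly mRNA for the iron-sulfur subunit of complex II.

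Total RNA came from duodenum, liver and spleen of C57BL6/J mice fed an iron poor diet (iron below 10 mg/kg) for 21 days from weaning (4 mice pooled per tissue), and from the brain and bone marrow of C57BL6/J mice on an iron-normal diet, aged 8 to 10 weeks (6 mice pooled per tissue). Tissue therefore cannot be told apart from diet and age between these 2 sets of mice. Recombinant His-tagged IRP2 made in E. coli was mixed with 50 µg of RNA and recovered with an antibody against the tag, the control reaction left out IRP2, and 120 ng of the recovered RNA was amplified for an Affymetrix whole-genome mouse array. Each tissue had 2 IRP2 and 2 control arrays, 20 in all. The labels give mixed sex, and they do not say whether the replicas came from separate pools, so p-values measure only how far these samples spread, and that spread may be technical. Bound RNA was in this way selected in a test tube from purified RNA, and a level given here is that in the recovered RNA. In pooled tissue RNA, fewer cells of a type and less RNA per cell cannot be told apart.

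The transferrin receptor mRNA Tfrc, which carries several iron-responsive elements, had 3 probe sets, which were 9.87, 4.96 and 3.72 times higher with IRP2 than without on the mean of the 5 tissues (limma, adjusted p = 2e-07, 0.000322 and 8.32e-07). The first of them was called in every tissue, at 17.0-fold in spleen, 12.2-fold in duodenum, 8.45-fold in brain, 8.31-fold in bone marrow (limma, adjusted p = 0.0495) and 6.43-fold in liver. The ratios of the second ran from 1.73 to 13.2-fold and were called in spleen, and those of the third ran from 1.90 to 6.88-fold and were called in duodenum, liver and brain. The marker lists for villus epithelium, liver, spleen lymphocytes, marrow myeloid cells and brain each had their highest mean in the tissue of that label. Single markers did not follow: Fabp1 read 13.29 to 13.73 in duodenum and 13.88 to 14.07 in liver. Cd3e read 7.16 to 7.38 in spleen and 7.52 to 7.92 in duodenum. Gfap read 6.30 to 6.75 in brain and 6.57 to 6.94 in liver. Mbp read 7.65 and 7.75 on the second brain replicate and 9.58 to 9.77 in duodenum. Every other marker of these lists read highest in its own tissue. The array medians fell in an upper range (5.65 to 5.71), which held liver, duodenum and the first brain replicate, and a lower one (5.39 to 5.55), which held bone marrow, spleen and the second brain replicate, so levels were set against each other within a range wherever possible. Bone marrow control replicate 1 stood apart from the other bone marrow arrays: the median log2 value of the tested members was 9.23 on it and 8.28 to 8.49 on the other 3. Its rank correlation with the mean spleen array was 0.955, against 0.915 to 0.917 for those 3. Its marrow myeloid marker mean was 11.96 and the others lay at 10.45 to 11.16, and its erythroid marker mean was 9.13 against 8.32 to 8.61. Of the 4 erythroid genes measured, Hba-a1 did not follow: it read 3.71 to 4.23 in bone marrow and 4.80 to 4.96 in duodenum. Liver markers had means of 7.37 and 7.42 on the spleen arrays of replicate 2 and 4.52 and 4.65 on those of replicate 1.

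None of the 170 tested members was called in the IRP2 reaction of any tissue, in either direction, or on the mean over tissues, by limma at an adjusted p under 0.05. Over all probe sets tested, the share called higher was 0.365% on the mean and 0.0597% for brain, 0.00995% for bone marrow, 0.063% for spleen, 0.0332% for liver and 0.073% for duodenum, and the share called lower was 0.00663% on the mean, 0.00332% for brain and 0% for the other tissues. With so few calls among all probe sets, 0 of 170 members lies near the background. At an unadjusted p under 0.05 there were 0 members in brain (0.551% of all probe sets higher, 0.156% lower), spleen (0.869% and 0.0862%), liver (0.793% and 0.322%) and duodenum (1.05% and 0.212%). There were 1 higher and 15 lower in bone marrow (1.73% and 4.77%), and 0 higher and 1 lower on the mean (1.93% and 0.939%). With the replicate number as a block, the unadjusted counts were higher: 2 higher and 40 lower in bone marrow (8.37% and 13.4% of all probe sets), 0 and 15 on the mean (6.16% and 5.57%), 2 and 3 in duodenum (4.34% and 2.02%), 0 and 1 in liver (2.9% and 2.5%), and 0 in spleen (3.15% and 0.852%) and brain (1.74% and 1.13%). In that fit 1 member was called after adjustment, in bone marrow, and 0 in the other tissues or on the mean. All probe sets called by that fit made up 0.282% higher and 0.0133% lower in duodenum, 0.206% and 0.0133% in liver, 0.292% and 0.0133% in spleen, 0.139% and 0.00332% in brain. On the mean they made up 1.07% and 0.146%. Without a block, the standard error of a member's log2 ratio was 0.182 to 0.459 in a tissue, with a median of 0.319. On the mean it was 0.0815 to 0.205. In the block fit it was, for example, 0.1465 in place of 0.325 for the brightest probe set of Ndufv1. For 1459884_at of Cox7c it was 0.327 in place of 0.361. With 2 arrays a group, ratios within the errors of a fit were not detectable, and ratios of several standard errors could also go uncalled. The third Tfrc probe set had a log2 ratio of 1.46 in spleen (SE 0.28) and was not called (limma, adjusted p = 0.0934). Its log2 ratios in duodenum, brain and liver, at 1.95, 2.36 and 2.78, were called. The lack of calls among members therefore does not exclude ratios of several standard errors.

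The members' ratios lay close to 0 in 9 of the 10 replica pairs. A replica pair is the IRP2 array minus the control array of the same replica number. In duodenum the median log2 ratio of the 170 members was 0.070 in pair 1 and 0.049 in pair 2, both above 0. In liver it was -0.195 and -0.051, in spleen -0.028 and -0.117, and in brain -0.079 and -0.015, all below 0. In bone marrow the pairs went apart, with -0.542 in pair 1 and 0.094 in pair 2. The medians over all 30153 probe sets stayed between -0.054 and 0.044 in the 10 pairs. On the mean over tissues the members' median was -0.083 and that of all probe sets -0.019, and 17 of the 170 members had a mean ratio above 0.

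**Figure D1:**
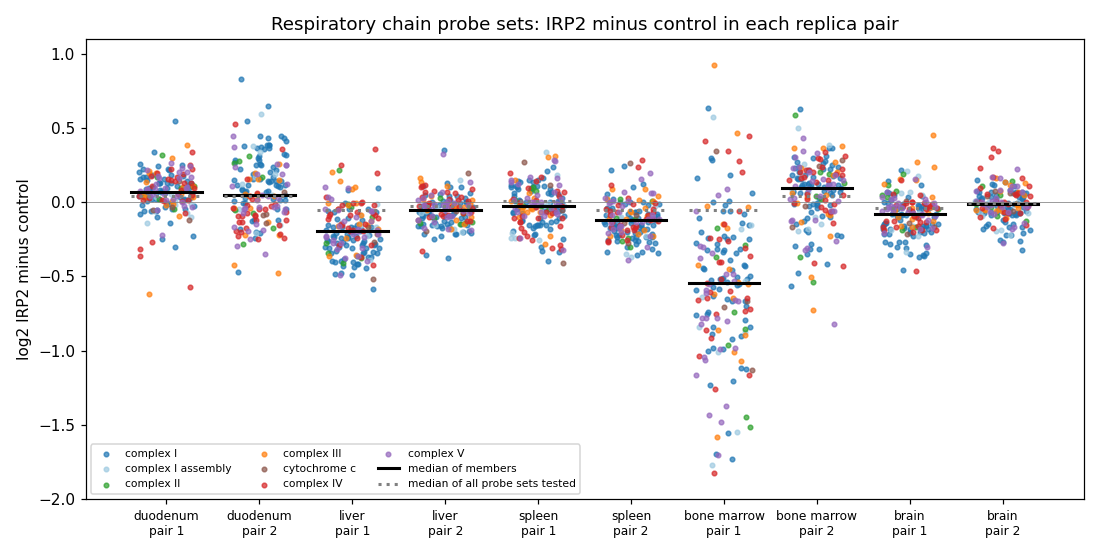
Log2 IRP2 minus control of each of the 170 tested members (points, coloured by complex) in the 10 replica pairs, with the median of the members (black line) and of all 30153 probe sets tested (dotted grey line). The members lie in a narrow band around 0 except in bone marrow pair 1, where the median is -0.542 and 28 members lie more than 1 log2 unit from 0. In that pair 2682 of all 30153 probe sets tested lie that far from 0.

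Complex I is the largest complex of the chain and takes electrons from NADH. Its 72 tested probe sets had median log2 ratios of 0.120 (duodenum), -0.169 (liver), -0.076 (spleen), -0.183 (bone marrow) and -0.071 (brain), and 62 of the 72 lay above 0 in duodenum against 3 in liver. By pair, 76.4% and 81.9% of them lay above 0 in duodenum and 2.78% and 20.8% in liver. Of all probe sets tested, 57.9% and 57.4% lay above 0 in duodenum and 41.1% and 43.8% in liver. None of the 72 passed the test in any tissue. Ndufv1 carries the flavin that accepts the electrons, and its brightest probe set had ratios of 0.16 and 0.04 in the duodenum pairs, -0.26 and -0.06 in liver, 0.13 and -0.17 in spleen, -0.02 and -0.01 in bone marrow, and -0.12 and 0.12 in brain. Ndufv2, its iron-sulfur partner, had a mean ratio of -0.00272 (SE 0.118). Ndufv1 thus had ratios on either side of 0. The standard error of a tissue's ratio on this probe set was 0.325 without a block and 0.1465 with the replicate number as a block.

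Ndufs7 and Ndufs8 hold the iron-sulfur clusters that hand electrons on to ubiquinone. Ndufs8 had the highest ratio of any member in duodenum. Its probe set 1423907_a_at read 8.60 and 9.46 in the duodenum control reactions and 9.15 and 10.29 with IRP2, a log2 ratio of 0.69 (SE 0.43, adjusted p = 1). The control and IRP2 values overlapped, although the IRP2 array was the higher one in both pairs, by 0.55 and 0.83. In liver the same probe set read 9.39 and 9.62 without and 9.08 and 9.55 with IRP2, and in brain 9.12 and 9.56 without and 8.81 and 9.34 with IRP2. The IRP2 array was thus the lower one of both pairs in each of these tissues, and the brain ratio of -0.26 was among the lowest of that tissue. Of the other 5 probe sets of Ndufs8, 1423908_at had 0.39 in duodenum. The brightest, 1434579_x_at, had 0.22 and 0.32 in the duodenum pairs and a mean ratio over tissues of -0.10 (SE 0.19). Ndufs7 had a mean ratio of -0.07 (SE 0.14) on its brightest probe set.

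Among the accessory subunits of complex I, Ndufc1, a small protein of the membrane arm, had its lower value in the IRP2 reaction in nearly every pair on its brightest probe set. Its probe set 1448284_a_at read 12.40 and 13.02 in the duodenum controls against 12.10 and 12.55 with IRP2, 12.25 and 12.41 against 11.76 and 12.25 in liver, and 11.87 and 11.77 against 11.53 and 11.46 in spleen. The IRP2 array was lower in 9 of the 10 pairs, all but bone marrow pair 2, where the ratio was 0.10. The mean ratio was -0.30 (SE 0.17, limma, adjusted p = 1, and 0.105 with the replicate number as a block). Its other probe set, 1416285_at, was above its control in 2 of the 10 pairs, with a mean ratio of -0.17 (SE 0.12). Ndufab1, the mitochondrial acyl carrier protein, had the lowest mean ratio of all members on 1435934_at, -0.32 (SE 0.14, adjusted p = 1), of which bone marrow pair 1 alone gave -1.70. The other 9 pairs of that probe set lay between -0.35 and 0.14. At the upper end of the mean ratios stood Ndufa4l2, the relative of Ndufa4 that is induced by hypoxia, with 0.12 (SE 0.12), and Ndufs5 with 0.10 (SE 0.10).

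The assembly factors of complex I, which help to build it and are absent from the finished enzyme, had median ratios of 0.056, -0.102, -0.134, -0.268 and -0.072 in duodenum, liver, spleen, bone marrow and brain over 10 probe sets. In bone marrow 3 of these 10 lay at an unadjusted p under 0.05 below 0 and 1 above it. Ndufaf4 read 6.52 and 5.72 in the bone marrow controls and 4.75 and 5.58 with IRP2 on 1435333_at (-0.96, SE 0.31, adjusted p = 0.699). The brightest probe set of Ndufaf4 had -0.05 there. The probe sets of Ndufaf8 went apart: 1448003_at read 7.32 and 7.41 against 7.89 and 7.91 in bone marrow (0.54, SE 0.20, adjusted p = 0.704), and 1457826_a_at had -0.31 in spleen, where 1448003_at had 0.18.

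Complex II is the smallest of the complexes and is also an enzyme of the citrate cycle. Sdhb, the mammalian counterpart of the fly gene with the iron-responsive element, read 11.46 and 12.12 in the duodenum controls and 11.41 and 12.07 with IRP2. In liver it read 11.49 and 11.55 against 11.12 and 11.40, in spleen 10.37 and 10.51 against 10.46 and 10.27, in bone marrow 9.80 and 8.62 against 8.84 and 8.64, and in brain 10.70 and 10.85 against 10.53 and 10.85. The IRP2 array was above its control in 3 of the 10 pairs, and the mean ratio was -0.19 (SE 0.15, adjusted p = 1). Sdhc and Sdhd anchor the complex in the membrane and bind its heme. Sdhc had a mean ratio of 0.00379 (SE 0.0903) and Sdhd one of -0.08 (SE 0.18). For Sdhd the pairs of duodenum gave 0.32 and 0.31 and bone marrow pair 1 gave -1.51, while the other 7 pairs lay between -0.13 and 0.20.

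Complex III passes electrons from ubiquinol to cytochrome c. Uqcrfs1, the Rieske iron-sulfur protein, had ratios between -0.09 and 0.20 in every pair outside bone marrow pair 1, where it had -1.58, and a mean ratio of -0.18 (SE 0.13, adjusted p = 1). Cyc1, the heme subunit, had a mean ratio of 0.07 (SE 0.15), with 0.39 and 0.15 in the duodenum pairs, 0.31 and 0.09 in spleen and -0.55 in bone marrow pair 1. It was among the 3 highest members of spleen. Uqcrq, a small subunit, gave the lowest ratio of duodenum on 1437134_at (7.28 and 6.41 against 6.67 and 5.93, -0.55, SE 0.34, adjusted p = 1), and the same probe set gave the highest ratio of brain, 0.27. Cytochrome c itself (Cycs) had a mean ratio of -0.07 (SE 0.16) on its brightest probe set. Its probe set 1422484_at read 11.40 and 11.63 against 10.89 and 11.43 in liver (-0.36, SE 0.29, adjusted p = 1).

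The 25 probe sets of the 10 iron-holding genes named above had pair medians of 0.127 and 0.166 in duodenum, -0.258 and -0.088 in liver, 0.070 and -0.131 in spleen, -0.666 and 0.112 in bone marrow and -0.098 and -0.012 in brain. Their direction in each pair was that of the 170 members as a whole except in spleen pair 1.

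Complex IV, cytochrome c oxidase, reduces oxygen to water. Its 30 tested probe sets had median ratios of -0.007, -0.039, -0.088, -0.175 and -0.013 in duodenum, liver, spleen, bone marrow and brain. Cox4i1, its largest nuclear subunit, read 12.69 and 13.23 in the duodenum controls and 12.83 and 13.14 with IRP2. Cox7a1, the isoform made in striated muscle, read 8.30 and 9.07 against 8.52 and 9.60 in duodenum, a ratio of 0.37 (SE 0.31, adjusted p = 1). Cox8c had 2 probe sets, of which 1443789_x_at had -0.39 in duodenum and 0.18 in brain. Cox6a2 and Cox7c supplied 2 of the 3 highest ratios of liver, 0.16 and 0.14.

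Complex V held 29 tested probe sets with median ratios of 0.030, -0.128, -0.047, -0.319 and -0.027 in the same order of tissues. Atp5c1 encodes the gamma subunit, the rotating stalk, and its probe set 1438809_at was the one member called with the replicate number as a block over all 20 arrays. In bone marrow it read 7.61 and 6.46 without and 6.24 and 5.63 with IRP2, which is lower by 1.37 in pair 1 and by 0.82 in pair 2. The log2 ratio of -1.10 did not pass limma without a block (SE 0.33, adjusted p = 0.695) and passed with the replicate number as a block (SE 0.156, adjusted p = 0.0239), where 0.348% of all probe sets were called lower and 0.378% higher in bone marrow. The brighter probe set of the gene, 1416058_s_at, read 10.51 and 9.02 without and 9.03 and 9.45 with IRP2 and so went down in pair 1 and up in pair 2. The probe sets of Atp5c1 did not share a direction in bone marrow pair 2. In spleen the alpha subunit Atp5a1 had 0.22 (1420037_at), and in brain the stator subunit Atp5pb read 8.85 and 9.47 against 9.01 and 9.69 (0.19, SE 0.31), both with an adjusted p of 1.

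Bone marrow gave the widest ratios of the 5 tissues. In pair 1 the ratios of the members had a standard deviation of 0.50, 28 of them lay past 1 log2 unit, and 19 of 170 lay above 0. All 30153 probe sets tested had a standard deviation of 0.568 there, with 2682 past 1 and 45.8% above 0. In pair 2 the members' standard deviation was 0.233, none lay past 1, and 112 lay above 0. For all probe sets these were 0.312, 227 and 55.8%. The ratio was lower in pair 1 than in pair 2 for 146 of the 170 members, a count for which no share of all probe sets is given. The lowest ratios after Atp5c1 belonged to Ndufaf4 and to Ndufc2, a membrane arm subunit of complex I that read 7.90 and 6.75 against 6.35 and 6.47 (-0.92, SE 0.40, adjusted p = 0.744). Pair 1 holds the control array that stood apart, on which members read high. The 15 members lower at an unadjusted p under 0.05 make up 8.82% of 170, against 4.77% of all probe sets, and 19 members were called lower when bone marrow control replicate 2 was left out, which sets both IRP2 arrays against the array that stood apart and where 5.57% of all probe sets were called lower. Without bone marrow control replicate 1, 0 were called (0.00332% of all lower).

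The tissues' ratios did not differ for any member by limma's F test over the 5 ratios, at an adjusted p under 0.05, where 1 of 30153 probe sets (0.00332%) was called. At an unadjusted p under 0.05 there were 0 members and 182 of all probe sets without the replicate block, and 6 members and 1921 of all with it, where 0.0398% of all probe sets and 0 members were called. Both IRP2 arrays lay below both controls for 59 of 170 members in spleen (34.7%, against 20.2% of all probe sets) and for 45 in liver (26.5% against 20.7%), and above both for 6 and 3 (15.6% and 13.9% of all probe sets). In bone marrow 23 lay below and 4 above (12.1% and 14.5% of all), in brain 15 and 4 (6.44% and 4.21%), and in duodenum 4 and 5 (8.98% and 14.4%). No member had its IRP2 arrays above the controls in all 5 tissues (0.229% of all probe sets) or below them in all 5 (0.0199%). No gene had probe sets whose ratios differed by 1 or more in a tissue, the widest gap being 0.97 for Ndufb9 in bone marrow.

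Genes that serve the chain without being part of it also had no calls in the IRP2 reactions. Tested were 33 genes outside the member list for assembly of the complexes, complex I included. Beside them stood 10 for transcriptional regulators of the chain and 12 for citrate cycle enzymes. Of all these genes, 0 were called in any tissue or on the mean in either direction. Over all probe sets tested, 0.00995% to 0.365% were called higher and 0% to 0.00663% lower, so 0 lies near the background. Their median ratios on the mean were -0.080, -0.066 and -0.106.

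The recovered RNA also gives the level of each member in each tissue. On the median of the 170 members, the 4 arrays of duodenum read 10.3 to 11.1, those of liver 10.2 to 10.5, of brain 9.92 to 10.4, of spleen 9.98 to 10.1 and of bone marrow 8.28 to 9.23. Bone marrow was the lowest tissue for all 7 groups of members. For 120 of 170 members all 4 bone marrow arrays lay below the other 16 arrays, which held for 8.75% of all probe sets, and the control mean was lowest in bone marrow for 146. Members whose 4 arrays in 1 tissue all lay above the other 16 numbered 13 for duodenum (6.35% of all probe sets), 2 for liver (7.06%), 4 for spleen (12.5%), 4 for bone marrow (4.08%) and 4 for brain (13.1%), and outside bone marrow 1 member lay below in each tissue (1.34%, 3.52%, 5.76% and 5.98% of all). Those of duodenum were 3 probe sets of Cycs, 2 of Cox5b and 1 each of Cyc1, Uqcrb, Uqcr10, Uqcrfs1, Cox7a1, Ndufb7, Atp5o and Atp5j2. Cyc1 read 11.36 to 12.20 on the duodenum arrays and at most 11.18 on the others. The control mean was highest in duodenum for 89 members, in liver for 39, in spleen for 19, in brain for 16 and in bone marrow for 7. No share of all probe sets is given for these lowest and highest control means. The spread of values was smaller on the bone marrow arrays (SD over all probe sets 1.86 to 2.13) than on the spleen arrays (2.32 to 2.38), and duodenum and liver belong to the other range of medians, so orders across ranges are given as values only.

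**Figure D2:**
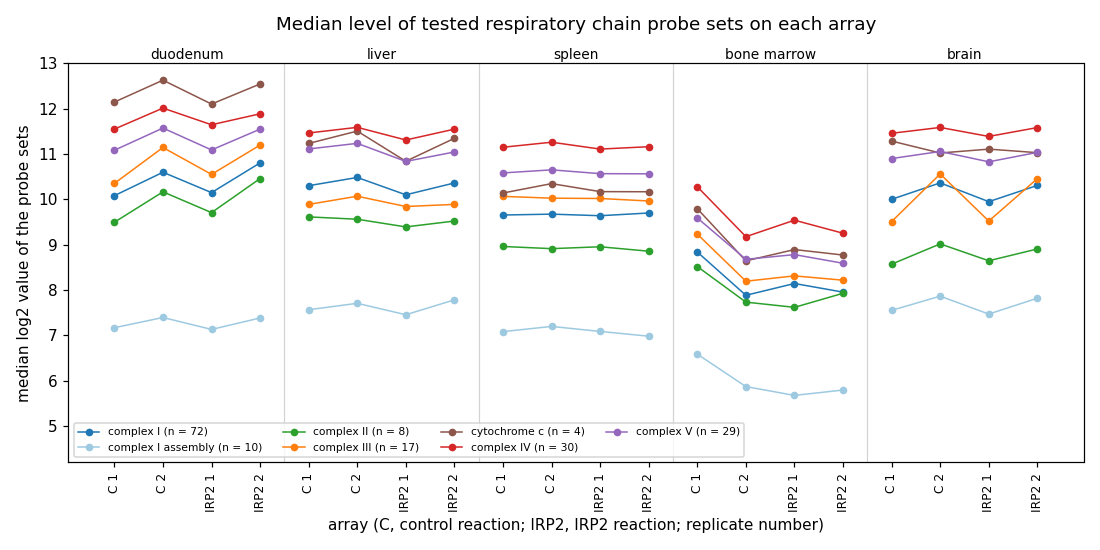
Median log2 value of the tested probe sets of each complex on each of the 20 arrays, by tissue and reaction (C, control), with lines joining the arrays of a tissue; a complex is compared across arrays only. Bone marrow reads lowest for all 7 groups, and its control replicate 1 reads above its other 3 arrays.

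Several subunits are encoded by pairs of isoform genes. Cox7a1 read 8.30 and 9.07 in the duodenum controls, 4.83 and 5.17 in liver, 4.68 and 4.59 in brain, 3.91 and 3.82 in bone marrow and 3.80 and 3.46 in spleen. All 4 duodenum arrays, at 8.30 to 9.60, lay above the other 16, at 3.46 to 5.24. In this order the values of bone marrow and spleen lay next to each other, and those of liver and brain did too. Of 9 markers of skeletal and heart muscle, the mean was 4.95 to 5.15 in duodenum and 4.96 to 5.11 in liver, and the brown fat genes Ucp1 and Cidea read at most 5.02 and 5.14 in duodenum. The third gene of the brown fat list, Ppargc1a, read 9.66 to 10.23 in duodenum and 8.15 to 8.47 in liver, and it is also listed among the regulators of the chain. Smooth muscle was not among the lists, and its part in the Cox7a1 level was not tested. Cox7a2, the isoform of liver and most other tissues, read 12.64 and 13.31 in duodenum, 12.66 and 12.83 in liver, 12.21 and 12.43 in spleen, 11.95 and 10.64 in bone marrow and 12.56 and 12.91 in brain. Outside bone marrow its 16 values lay between 12.21 and 13.31.

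Cox6a1, the widespread isoform of that subunit, read 11.83 to 13.88 over the control arrays, with its lowest value on bone marrow control replicate 2. Cox6a2, the muscle isoform, went the other way: its brightest probe set read 8.00 to 8.33 on the 4 bone marrow arrays and 7.09 to 7.63 on the other 16. The groups did not overlap. Cox4i2, Cox8b, Cox6b2 and Cox7b2, whose proteins are known from lung, muscle or testis, did not pass the filter. They read 4.65 to 5.13, 4.24 to 5.18, 3.75 to 5.83 and 2.33 to 2.94 over the 20 arrays. Cox4i1, Cox8a and Cox6b1, their widespread counterparts, were measured well above the array medians in every tissue. Ndufa4, which is grouped here with complex I by its symbol although its protein is found in complex IV, read 9.27 to 10.02 in the duodenum controls and 7.24 and 8.52 in bone marrow. Ndufa4l2 read 4.49 to 5.87 over all arrays. The genes Atp5g1, Atp5g2 and Atp5g3 encode the same mature ring subunit of complex V. Atp5g3 read 10.78 to 13.83 over the control arrays, and all of them had their lowest control value in bone marrow on their brightest probe set.

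**Figure D3:**
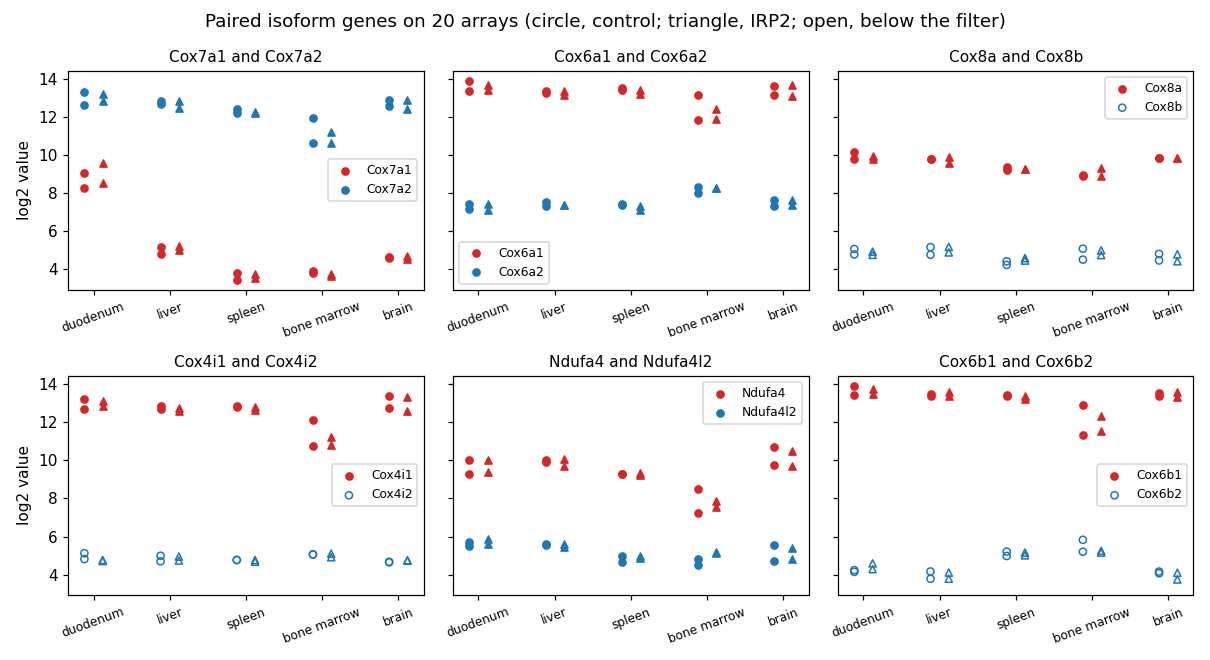
Log2 values of paired isoform genes on the 20 arrays by tissue (brightest probe set of each gene; circles control, triangles IRP2, open symbols below the filter). Cox7a1 reads 8.30 to 9.60 in duodenum and at most 5.24 elsewhere, and the bone marrow symbols spread over more than 1 log2 unit for Cox7a2 and Ndufa4.

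Promoters were read for the 75 of 91 member genes found in RefSeq's table of transcription starts (build GRCm38.p6, 250 bases before to 50 after the start). The palindromic site of the mitochondrial gene regulator NRF1, which is the longer stretch of capitals in the Cox6a1 promoter below, was present on either strand in 6 of the 75 (8%) and in 1.07% of 27025 genes, and CCGGAAG, a site letter string of ETS factors such as GABP, in 19 (25.3%) and 9.93%. The members' promoters had a median GC content of 59.0% against 52.8%, and the motifs are rich in G and C. The loop letters of the iron-responsive element, CAGTGN, stood in the 50 bases after the start, read on the transcript's strand, in 3 members (4%) and in 8.23% of all genes. The promoters of 4 genes are printed for the genes whose levels are described here, with the 250 bases before the start in lower case and motif matches in capitals. Cox7a1 and Cox7a2 are isoforms of which the first stood out in duodenum, Cox6a1 holds both motifs, and Uqcrh had the highest spleen minus bone marrow difference among the brightest probe sets.
Cox7a1, chr7:30183921-30184170, plus strand: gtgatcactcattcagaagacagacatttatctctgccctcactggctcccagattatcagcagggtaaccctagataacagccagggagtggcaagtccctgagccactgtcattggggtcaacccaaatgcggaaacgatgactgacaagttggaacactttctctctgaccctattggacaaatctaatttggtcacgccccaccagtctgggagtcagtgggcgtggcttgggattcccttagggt
Cox7a2, chr9:79759854-79760103, minus strand: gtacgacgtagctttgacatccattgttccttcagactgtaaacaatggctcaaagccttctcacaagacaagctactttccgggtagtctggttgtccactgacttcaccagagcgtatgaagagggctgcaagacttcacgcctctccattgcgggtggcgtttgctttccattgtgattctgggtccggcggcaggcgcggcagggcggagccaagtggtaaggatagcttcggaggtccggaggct
Cox6a1, chr5:115348959-115349208, minus strand: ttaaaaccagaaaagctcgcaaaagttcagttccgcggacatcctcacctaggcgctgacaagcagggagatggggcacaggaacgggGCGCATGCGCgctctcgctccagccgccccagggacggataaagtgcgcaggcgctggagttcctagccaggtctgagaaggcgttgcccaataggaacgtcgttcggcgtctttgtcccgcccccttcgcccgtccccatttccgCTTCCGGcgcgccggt
Uqcrh, chr4:116075071-116075320, minus strand: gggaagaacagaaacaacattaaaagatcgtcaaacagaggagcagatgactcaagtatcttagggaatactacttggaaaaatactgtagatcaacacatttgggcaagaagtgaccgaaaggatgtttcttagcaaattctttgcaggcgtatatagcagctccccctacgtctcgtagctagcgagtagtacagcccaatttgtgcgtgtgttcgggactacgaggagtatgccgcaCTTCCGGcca
Neither motif is found in these 250 bases of Cox7a1 or Cox7a2. In Cox6a1 the last base of the NRF1 site lies 153 bases before the start and that of CCGGAAG, which appears as its reverse complement, 10 bases before it, and in Uqcrh CCGGAAG lies 4 bases before the start. A match is a stretch of letters and shows no binding.

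Duodenum and liver came from the same diet and lie in the same range of medians. Their control reactions differed for 8 members: 6 were higher in duodenum and 2 in liver, against 11.9% and 10.8% of all probe sets by limma at an adjusted p under 0.05. Whether members differ from other probe sets in this was not tested. The median member difference was 0.12 and that of all probe sets 0.01. One of the 6 was Cox7a1, which reached the median of its array on duodenum arrays only and had to differ once it passed the filter, so its difference of 3.68 is a description. In all, 3 of the 170 tested members reached the array median in 1 tissue only: Cox7a1 and Ndufa4l2 in duodenum, and Atp5g1 on 1444874_at in brain. Atp5o, the subunit that joins the stator to the head of complex V, read 11.05 and 11.57 in duodenum and 10.22 and 10.40 in liver, a difference of 1.00 (SE 0.26, adjusted p = 0.0106), and Uqcrc1, a core protein of complex III, read 10.35 and 11.14 against 9.84 and 9.81 (0.93, SE 0.32, adjusted p = 0.0485). Cycs was called on 2 of its 4 probe sets, by 1.12 and 0.92, while its brightest differed by 0.54 (SE 0.34, adjusted p = 0.319). Ndufs4 was called on 1459760_at, by 0.99, while its brightest probe set differed by 0.20 (SE 0.25, adjusted p = 0.694).

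The members called higher in liver were assembly factors of complex I. Ndufaf1 read 9.20 and 9.34 in liver and 7.92 and 7.94 in duodenum (-1.34, SE 0.26, adjusted p = 0.0011), and Ndufaf6 read 7.86 and 8.17 against 6.51 and 6.66 (-1.43, SE 0.27, adjusted p = 0.000799). For both, the 4 liver arrays lay above the other 16 arrays. Between the IRP2 reactions of the same tissues these genes differed by -1.15 and -1.18 and Cox7a1 by 3.92. Pancreatic acinar markers had a mean of 11.7 to 11.9 in duodenum and 7.58 to 7.88 in liver, and their part in these differences was not tested. The count of 8 was 18 after quantile normalization over all arrays, with 12 higher and 6 lower (13.8% and 12.5% of all probe sets). It was 3 without liver control replicate 1 (8.35% of all probe sets higher and 8.35% lower), 4 without duodenum control replicate 2 (7.71% and 9.25%), 5 without liver control replicate 2 (8.65% and 7.76%), and 13 without either bone marrow control array (14.7% and 13.2%).

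Spleen and bone marrow lie in the other range, with different diets and ages. In their control reactions 130 of the 170 members were higher in spleen and 5 in bone marrow, against 32.9% and 17.1% of all probe sets, and the median member difference was 1.17 with 0.15 for all probe sets. Calls covered 77 of the 86 genes tested. By complex, 57 of 72 probe sets of complex I, 5 of 8 of complex II, 11 of 17 of complex III, 3 of 4 of cytochrome c, 21 of 30 of complex IV, 24 of 29 of complex V and 9 of 10 of the assembly factors were higher in spleen. After quantile normalization over all arrays these counts were 26, 3, 7, 0, 6, 13 and 6. Those lower in spleen were then 3, 1, 2, 1, 4, 2 and 1 in the same order. Of all probe sets, 21.3% were higher and 21.2% lower under that scaling. Uqcrh, the hinge protein of complex III, read 10.89 and 10.90 in spleen and 9.38 and 8.21 in bone marrow on 1453229_s_at (2.10, SE 0.30, 4.27-fold, adjusted p = 8.12e-05). Atp5e, the epsilon subunit of complex V, differed by 1.87 (SE 0.31), and Atp5j, its coupling factor, by 1.85 (SE 0.32). Ndufa9 and Ndufs3, of the arm of complex I that reaches into the matrix, differed by 1.84 (SE 0.32) and 1.80 (SE 0.31). The spleen values lay above both bone marrow controls for each of these genes.

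Cox6a2 was the called gene that was higher in bone marrow on its brightest probe set. It read 7.45 and 7.37 in spleen and 8.00 and 8.33 in bone marrow (-0.76, SE 0.17, adjusted p = 0.00296). The other probe sets higher in bone marrow were 1445484_at of Cycs (-1.21), 1443789_x_at of Cox8c (-1.003), 1442658_at of Ndufb2 (-0.67) and 1443495_at of Atp5j2 (-0.46), and for Cycs, Ndufb2 and Atp5j2 brighter probe sets were called higher in spleen.

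The size of the spleen difference depended on the array and the scaling. The mean of the spleen controls exceeded bone marrow control replicate 1 by a member median of 0.65, control replicate 2 by 1.68, and the IRP2 arrays by 1.21 and 1.56, while the median over all probe sets was 0.05 to 0.26. Members read higher in spleen for 151 to 155 of 170 against each of the 4 arrays, as did 52.9% to 59% of all probe sets. Without bone marrow control replicate 2 the count was 67 (64 higher, 3 lower; 19.7% and 9.27% of all), and without control replicate 1 it was 146 (139 higher, 7 lower; 39.4% and 19.1% of all). Quantile normalization over all 20 arrays, which makes the spread of the arrays equal, gave 61 higher and 14 lower, a member median of 0.35 with -0.03 for all probe sets, and background shares of 21.3% and 21.2%. Under that scaling Cox4i1 had 0.24 in place of 1.36, Cox7a2 had -0.09 in place of 1.02, Cox6a1 had -0.07 in place of 0.98, and Uqcrh had 1.29 (adjusted p = 0.00022). Marrow myeloid markers had means of 10.45 to 11.96 in bone marrow and 8.09 to 8.31 in spleen, lymphocyte markers 7.12 to 7.59 and 9.41 to 9.61, and pancreatic acinar markers 6.67 to 7.05 and 8.82 to 9.40. Their part in the difference was not tested.

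**Figure D4:**
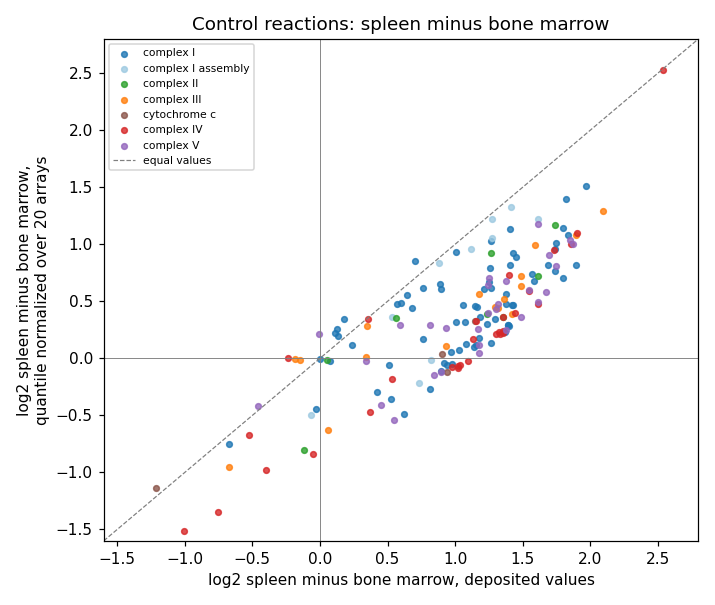
Spleen minus bone marrow in the control reactions for each of the 170 members, as deposited (x axis, log2) and after quantile normalization over 20 arrays (y axis, log2), coloured by complex, with the dashed line marking equal values. Most points lie below the dashed line, and the median goes from 1.17 to 0.35.

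Brain had 1 control array in each range, so that its difference from the other 4 tissues combines a comparison within each. Only brain had arrays in both ranges, so the range term of the fit took up the difference between its replicates that both reactions share. The SE, adjusted p and calls of a brain difference therefore leave out that spread. Of 170 members 29 were called higher and 13 lower in brain, against 25.3% and 29.8% of all probe sets, with a member median of 0.21 and -0.14 for all. The ranges did not give the same picture. Brain replicate 1 lay below the mean of duodenum and liver by a member median of -0.31 (-0.09 for all probe sets), and brain replicate 2 above the mean of spleen and bone marrow by 0.85 (-0.13 for all), where bone marrow was the low tissue. The sign was opposite for 133 members, above 0 in both for 13 and below 0 in both for 24, and 21 of the 42 called members kept their sign in both ranges. No share of all probe sets is given for these sign counts, so whether they are particular to the members was not tested.

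Among the members that kept it, Ndufaf5, an assembly factor that modifies Ndufs7, read 7.93 and 8.68 in brain and 5.51 to 7.08 in the other controls (1.71, SE 0.18, 3.27-fold, adjusted p = 8.65e-07, 1.17 and 2.24 within the ranges). Ndufaf7, a methyltransferase that acts on complex I during assembly, differed by 0.77 (SE 0.16, 0.57 and 0.97 within the ranges), and Ndufaf4 by -0.50 on its brightest probe set (SE 0.14, -0.52 and -0.48) and by 0.83 on 1435333_at. Atp5g2 differed by -0.56 (SE 0.18, -0.96 and -0.16). Assembly factors were called in 7 of 10 probe sets, 5 higher and 2 lower. For Ndufa4 (1.03 in the fit), Ndufb2 (0.88) and Ndufa12 (0.78) the difference rested on the lower range, with 2.11, 1.86 and 1.56 there and -0.0449, -0.0946 and -0.00245 in the upper one. Cox7a1, which is also among the 42 although it read below the array median in brain, had -2.17 against duodenum and liver and 0.85 against spleen and bone marrow.

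Some single probe sets gave wider brain differences. Atp5g1 read 5.61 and 5.52 in brain and 2.85 to 3.61 in the other control reactions on 1444874_at. This probe set reached the array median on 2 brain arrays and no other, so the values are a description, and the brighter probe set 1416020_a_at differed by 0.09 (SE 0.22). Ndufa10, an accessory subunit of complex I, differed by 1.74 on 1418068_at and by 0.68 on its brightest. For 4 genes, Cox8a, Ndufaf4, Ndufb8 and Ndufs4, called probe sets pointed both ways, as with Ndufb8 at -1.92 on 1458404_at and 0.69 on 1448198_a_at. Which transcripts these probe sets detect was not tested, and probe sets ending in _x_at or _s_at can also bind related sequences such as pseudogenes. The count of 42 was 81 (68 higher, 13 lower) without bone marrow control replicate 1, where 28.4% of all probe sets were called higher and 33.1% lower. It was 66 (48 higher, 18 lower) after quantile normalization, with 24.5% and 32.6% of all, 8 without brain control replicate 1 (17.4% and 15.6%) and 7 without brain control replicate 2 (18.2% and 16.2%).

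**Figure D5:**
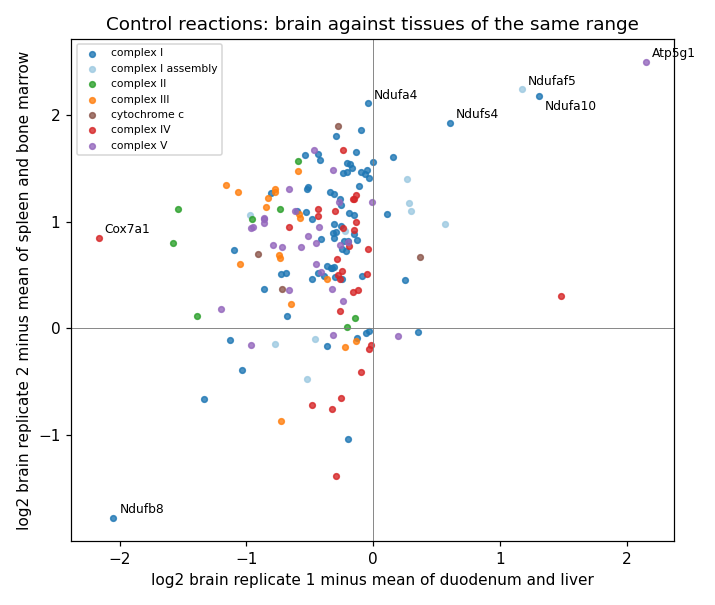
Brain minus other tissues in the control reactions for each of the 170 members, within the upper range of array medians (x axis, log2, brain replicate 1 minus duodenum and liver) and within the lower (y axis, log2, brain replicate 2 minus spleen and bone marrow). Most points lie at the upper left, with opposite signs (133 members), and the named probe sets of Atp5g1, Ndufaf5, Ndufa10 and Ndufs4 at the upper right.

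Other genes of the pathway were counted between tissues on the brightest probe set of each gene. Of the 33 assembly genes outside the member list, 25 were higher in spleen than in bone marrow and 0 lower (32.9% and 17.1% of all probe sets). Of 12 citrate cycle enzymes 11 were higher and 0 lower, among them Suclg1, a subunit of succinyl-CoA ligase, at 2.29 (SE 0.30). Of the 10 regulators 4 were higher, among them Tfam, the packaging factor of mitochondrial DNA, at 1.52 (SE 0.24). These spleen and bone marrow counts come from the deposited values of all arrays. How far they depend on quantile normalization or on single bone marrow arrays, as the members' counts did, is not given here. The shares are over all tested probe sets, whereas each gene is counted on its brightest. In duodenum against liver, where 11.9% and 10.8% of all probe sets were called, 5 citrate cycle enzymes were higher and 1 lower, with citrate synthase (Cs) at 1.88 (SE 0.29), and of the assembly genes 1 was higher and 4 lower, with Nubpl, which delivers iron-sulfur clusters to complex I, at -1.80 (SE 0.25). The regulators split, with 2 higher, among them the coactivator Ppargc1a at 1.51 (SE 0.25), and 2 lower. In brain against the other tissues 4 assembly genes were higher and 7 lower, beside 25.3% and 29.8% of all probe sets. For regulators the counts were 2 and 5, and for citrate cycle enzymes 2 and 1. Ppargc1a had 3.19 (SE 0.20, with the limit given above for brain). Its brain controls read 9.64 and 9.94, beside 9.66 and 10.12 in duodenum and 8.47 and 8.28 in liver. In the lower range it read 4.90 and 4.30 in spleen and 3.78 and 3.27 in bone marrow. Brain replicate 1 thus lay below both duodenum controls of its range.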

How the data were processed

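Values were the deposited log2 intensities of 20 Affymetrix whole-genome mouse arrays, which the authors made, per the series' design text, either with RMA in Bioconductor or with MAS5 in GCOS followed by quantile normalization. Which of these made the table, and the versions, are not given in the sources used here. Values ran from 1.7654 to 14.975. After 64 Affymetrix controls were left out, 45037 probe sets remained, and the 30153 at or above the median of their array on at least 2 arrays were tested. Of all 45101 probe sets, 34958 had 1 gene symbol, 932 several and 9211 none; members were matched to RefSeq by gene ID.

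limma 3.58.1 in R 4.3.3 was fitted to 10 groups of tissue and reaction with Benjamini-Hochberg adjustment over all tested probe sets, and a call was an adjusted p under 0.05. Levels were compared between control reactions with the range of array medians as a term, which in brain coincides with the replicate number. An SE is that of the log2 difference. The brightest probe set of a gene is that with the highest mean over arrays. Array number limits the precision. Scripts were tested on simulated data.

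Same-numbered arrays of a tissue deviated together (correlations 0.676, 0.565, 0.385, 0.251 and 0.923 in duodenum, liver, spleen, bone marrow and brain), so the replicate number was also fitted as a block. Genes were named by rule: members called in an IRP2 fit, the 3 highest and 3 lowest ratios per contrast, the 5 highest and 5 lowest called genes between tissues, iron-holding members, isoform pairs and genes whose probe sets disagree. Members and lists were chosen with earlier results of these data known. Alternatives were the block, other filters, quantile or median scaling, a variance trend, other choices of probe sets and leaving out each array.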

Additional observations from a re-analysis of the deposited data

Results flagged for a closer look

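The members' median log2 ratio of IRP2 to control lay above 0 in both replica pairs of duodenum and below 0 in both pairs of liver, spleen and brain. The duodenum median exceeded that of liver by 0.183, that of spleen by 0.132 and that of brain by 0.107 on the log2 scale. The difference between tissues in this median was not tested, and limma's F test on single members called none at an adjusted p under 0.05, with 0 members at an unadjusted p under 0.05. The medians of all tested probe sets were likewise above 0 in both duodenum pairs, at 0.042 and 0.044, and below 0 in both pairs of liver and brain.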

How the results depend on the processing

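With the replicate block, 1 member was called in bone marrow (Atp5c1, lower) in place of 0, and the block changed no other count of calls in the IRP2 contrasts. After quantile normalization the counts between control reactions were 18 for duodenum minus liver, 75 for spleen minus bone marrow and 66 for brain, in place of 8, 135 and 42. Leaving out 1 array gave 0 to 19 members called for IRP2 in bone marrow, 3 to 13 for duodenum minus liver, 67 to 146 for spleen minus bone marrow and 7 to 81 for brain, and 0 in the other IRP2 contrasts. A lone array left in a group is assumed to vary like the other groups. Mean ratios near 0 changed sign: quantile normalization gave Ndufv2 0.0307 and Ndufv1 0.032, and the mean without bone marrow gave Ndufv2 0.00424 and Sdhd 0.0694. Leaving out 1 array gave -0.072 to 0.0666 for Ndufv2, -0.0874 to 0.0524 for Ndufv1, -0.229 to 0.0785 for Sdhd, -0.0406 to 0.0482 for Sdhc, -0.211 to 0.0686 for Cycs, -0.167 to 0.0218 for Ndufs7, -0.23 to 0.0252 for Ndufs8 and -0.0487 to 0.195 for Cyc1. In brain, Cox7a1 had 0.847 within the lower range of medians, and Ndufa12, Ndufb2 and Ndufa4 had -0.00245, -0.0946 and -0.0449 within the upper. Of the values for single genes, 704 kept their direction and side of the threshold, 37 lost the call, 2 gained it, 40 changed sign and 10, all brain differences within a range of medians, moved by more than the spread between arrays. The cause was not tested. Signal below the array median left 13 member probe sets untested.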
